A study of Mus musculus with 2 samples.

Results

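The genes described here make and process the lipids of the epidermal water barrier and of the sebaceous gland. They are 36 genes chosen by function, but with earlier results of these data known, so their directions are not independent evidence. They cover fatty acid elongases, enzymes of sphingoid base and ceramide synthesis, and genes of acylceramide formation and lamellar body loading. Lipoxygenases, enzymes of ceramide turnover, and enzymes of neutral lipid and wax synthesis complete the set. A probe set was used when the platform annotation gave it exactly 1 gene and that gene was a member. This found 75 probe sets for 35 of the 36 genes, out of 34945 probe sets for 18193 genes in all. Soat1, which encodes a sterol O-acyltransferase, had no such probe set and was not analysed here.

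The VEGF-labelled array came from a K14CreER:Rosa-VEGF-164 mouse, in which the keratin 14 promoter drives an inducible Cre recombinase that is to switch on a VEGF transgene, and the comparison array came from a wild-type mouse. Mice of both genotypes had received the carcinogen DMBA on postnatal days 23, 25 and 27, then the tumour promoter TPA over several weeks, and DMBA again at 7 weeks of age. From the digested skin tumours, living CD34-positive epithelial cells (TECs) were sorted, and RNA (100 ng) was hybridised to 1 Affymetrix Mouse Genome 430 2.0 array per genotype. How many mice or tumours went into each array and how Cre was induced is not known here.

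The barrier of the skin is built by keratinocytes as they leave the basal layer. They make ceramides with very long acyl chains, pack their glucosylated forms into lamellar bodies, and release them between the cornified cells, where some are bound to the cornified envelope after oxidation by lipoxygenases. Sebocytes instead fill with triglycerides, wax esters and cholesterol esters, and burst to release sebum. Some enzyme families, the elongases among them, have members known mainly from one or the other of these cell types.

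Each value below is a single measurement, with no replicate error and no test between genotypes. Signals are anti-logged deposited values in arbitrary units, and a log2 ratio is the VEGF-labelled array over the wild-type array. The background level was 11.3 on the VEGF-labelled array and 19.9 on the wild-type array, which 65.2% of the named probe sets exceeded on the VEGF-labelled array and 58.3% on the wild-type array. Where a gene had several probe sets, the one of highest mean log2 signal stands for it. Where a gene was above background on only 1 array, its fold is a bound against the other array's background and is written "at least". The SD of a single log2 ratio, from the disagreement of probe sets of the same gene, was 0.47 at low, 0.42 at middle and 0.36 at high signal over 4885 genes. It does not cover the spread between mice, tumours or sorts. The sorted cells carried the epithelial transcript Krt14 on both arrays, at 8571 on the VEGF-labelled array against 8990 on the wild-type array. The sort marker Cd34 had 751 against 430. Vegfa, the gene gained by design, had a signal of 397 on the VEGF-labelled array against 804 on the wild-type array, so it did not check the genotype label.

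A fold or a bound could be given for 33 members, and on the VEGF-labelled array 3 of them were higher by at least 2-fold while 3 were lower by as much. The higher ones were the ceramide synthase gene Cers3 and the elongase genes Elovl4 and Elovl7. The lower ones were the elongase gene Elovl3, the reductase gene Far2 and the ceramide synthase gene Cers4. Over all 12194 genes measured in this way, 3.87% were higher and 8.54% lower by at least 2-fold. As reported, the members' share of 9.09% in each direction lay near the background for lower genes and above it for higher genes. This difference was not tested, and the background for lower genes depended on the processing. The values of the remaining 27 members did not reach 2-fold. For Alox12b and Alox15 among them the value is a bound, so the difference may be larger. Of the 33 ratios, 22 were above 0, against 47.1% of all genes. The median was 0.24, against -0.04 over all genes. The sign of a bound, which 3 of the 33 values are, is fixed by the array on which the gene passed background. With an offset of 50 added to signals scaled to equal medians, the split of 3 higher and 3 lower became 3 higher and 0 lower, and the median over all genes moved to 0.10.

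**Figure D1:**
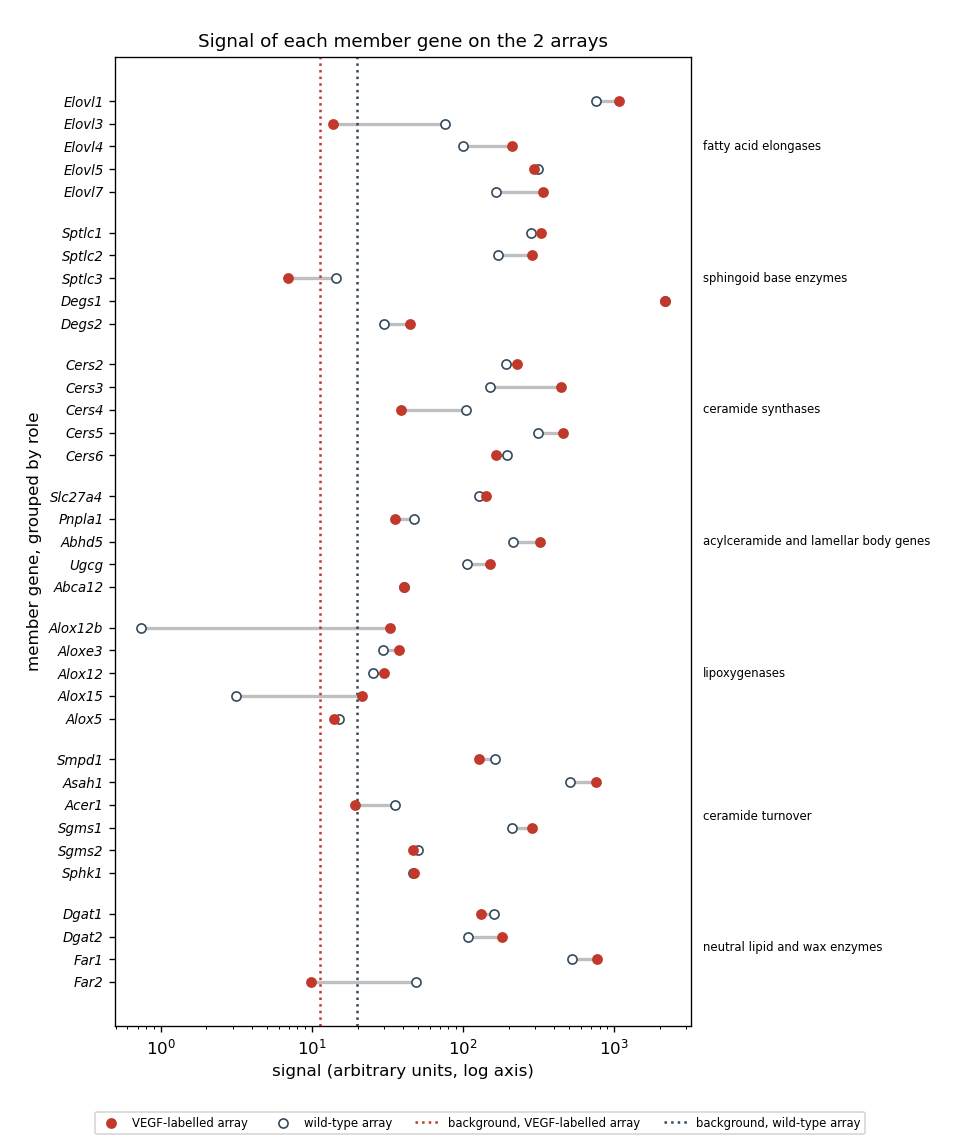
Signal of the 35 measured member genes (log axis, arbitrary units) on the VEGF-labelled array (filled) and the wild-type array (open), grouped by role, with each array's background level as a dotted line. Elovl3 and Far2 lie far to the left on the VEGF-labelled array, at 13.8 and 9.90, while Cers3 lies to the right, at 443 against 150 on the wild-type array.

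The 5 elongases carry out the chain-lengthening step for different acyl chains, and they diverged. Elovl4, which makes the ultra-long chains of acylceramides, had a signal of 211 on the VEGF-labelled array against 100 on the wild-type array, a 2.11-fold difference. Its other probe set gave a log2 ratio of 1.42, so both lay above 2-fold. Elovl7, which elongates saturated chains, had 338 against 164, or 2.06-fold. A second Elovl7 probe set gave 1.05 on the log2 scale, but its 4 remaining probe sets, at low signal and 3 of them bounds, lay between -0.52 and 0.84, and the median over all 6 was 0.58. The Elovl7 ratio was also just under 2-fold after quantile normalization (0.99) and after loess normalization.

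Elovl3, the elongase known from sebaceous glands and brown fat, went the other way. Its single probe set had 13.8 on the VEGF-labelled array against 75.7 on the wild-type array, 5.50-fold lower. The first of these signals was close to background, and when 19.9 was the floor for both arrays only a bound of -1.93 on the log2 scale remained. Elovl1, which makes saturated very long chains, had 1083 against 764, and all 4 of its probe sets were above 0, between 0.50 and 0.79. Elovl5, which elongates polyunsaturated chains, had 297 against 313, with 0.23 from its other probe set. Of the 5 elongases, 2 were thus at least 2-fold higher, 1 at least 2-fold lower and 2 neither.

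Ceramide synthases attach an acyl chain to a sphingoid base, and each prefers certain chain lengths. Cers3, which uses the ultra-long chains of the epidermis, had the highest ratio of the 33 members, 443 on the VEGF-labelled array against 150 on the wild-type array, 2.96-fold higher. It was read by 1 probe set and kept a log2 ratio between 1.52 and 1.63 in all 10 other processing settings. Cers4, which uses long chains, had 38.7 against 104, 2.70-fold lower. Its 2 further probe sets gave -1.20 and -1.02, so all 3 lay below -1. The other members of this family were closer together on the arrays. Cers2, of very long chains, had 226 against 192. Cers5 had 457 against 312, and Cers6 had 164 against 197, both being enzymes that use palmitoyl chains.

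For the 6 members at least 2-fold apart, the log2 ratio was set beside those of all genes in the same class of signal. In the low-signal class of 6716 genes, 0.31% had a ratio as low as that of Elovl3, 0.73% as low as the bound of Far2 and 4.12% as low as Cers4. In the middle class of 2989 genes, 1.10% were as high as Cers3, 2.64% as high as Elovl4 and 3.08% as high as Elovl7. As reported, Elovl3, Far2 and Cers3 were therefore further out among genes of like signal than the other 3. For Far2 this place depended on the floor, because its value is a bound. With the same floor for both arrays, the Far2 bound was -1.30 on the log2 scale, against -1.43 for Cers4. In the other settings that gave Far2 a value, it lay below Cers4. The Elovl4 and Elovl7 ratios of 1.07 and 1.04 exceeded the 2-fold line by much less than the SD of 0.42 at their signal.

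Promoters of the members at least 2-fold apart are shown to place the genes and to give the sequence next to their starts, for the 5 of 6 with an entry in RefSeq's table for GRCm38.p6 (250 bases before to 50 after the start, on the gene's strand). The 3 higher genes are Cers3 at chr7:66743254-66743553 on the plus strand, Elovl4 at chr9:83806256-83806555 on the minus strand and Elovl7 at chr13:108214154-108214453 on the plus strand. Those of the lower genes are Cers4 at chr8:4493155-4493454 and Far2 at chr6:148047166-148047465, both on the plus strand. Capitals mark matches to the 4 motifs searched on both strands: TGANTCA (bound by AP-1), AGGTCA (a nuclear receptor half-site), CACGTG (an E-box) and TATAAA (of the core promoter).
Cers3: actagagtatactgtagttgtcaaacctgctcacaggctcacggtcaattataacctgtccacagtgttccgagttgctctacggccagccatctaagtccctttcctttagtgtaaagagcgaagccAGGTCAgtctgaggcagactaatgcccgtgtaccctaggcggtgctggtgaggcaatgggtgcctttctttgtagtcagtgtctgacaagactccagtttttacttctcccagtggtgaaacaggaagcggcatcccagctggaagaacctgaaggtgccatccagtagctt
Elovl4: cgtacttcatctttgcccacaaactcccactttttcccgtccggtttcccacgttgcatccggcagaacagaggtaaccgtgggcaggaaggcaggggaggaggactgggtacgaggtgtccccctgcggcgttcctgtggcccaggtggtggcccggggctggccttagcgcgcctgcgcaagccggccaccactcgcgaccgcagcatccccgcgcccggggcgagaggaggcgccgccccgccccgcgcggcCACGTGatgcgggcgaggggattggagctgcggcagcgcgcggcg
Elovl7: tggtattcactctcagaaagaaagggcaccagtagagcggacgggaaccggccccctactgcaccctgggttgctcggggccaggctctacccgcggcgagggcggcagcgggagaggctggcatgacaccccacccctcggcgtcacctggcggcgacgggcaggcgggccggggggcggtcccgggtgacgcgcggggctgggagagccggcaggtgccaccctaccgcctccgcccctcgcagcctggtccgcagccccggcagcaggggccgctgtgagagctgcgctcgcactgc
Cers4: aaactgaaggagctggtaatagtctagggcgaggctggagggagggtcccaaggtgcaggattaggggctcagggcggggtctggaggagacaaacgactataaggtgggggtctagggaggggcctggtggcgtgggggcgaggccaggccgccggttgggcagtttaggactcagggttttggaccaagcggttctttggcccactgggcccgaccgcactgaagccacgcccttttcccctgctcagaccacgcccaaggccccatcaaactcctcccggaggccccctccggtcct
Far2: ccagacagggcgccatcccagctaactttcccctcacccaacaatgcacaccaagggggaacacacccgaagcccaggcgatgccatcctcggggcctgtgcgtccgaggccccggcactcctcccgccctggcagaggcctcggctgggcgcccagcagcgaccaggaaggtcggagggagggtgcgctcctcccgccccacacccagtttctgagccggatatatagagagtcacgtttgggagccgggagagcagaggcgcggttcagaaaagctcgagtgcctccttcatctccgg
In these 5 windows there was 1 AGGTCA, in Cers3, and 1 CACGTG, in Elovl4, with no overlap between motifs. The windows of Elovl7, Cers4 and Far2 held none of the 4. Among 32544 promoters of the same length, 16.2% held AGGTCA, 7.17% CACGTG, 13.6% TATAAA and 7.79% TGANTCA. Of 44 promoters for 30 member genes, 11 held AGGTCA, 8 CACGTG, 2 TATAAA and 5 TGANTCA, where alternative starts of 1 gene can share sequence. Elovl4 and Elovl7 had GC contents of 71.0% and 74.0%, Far2 66.0%, Cers4 64.3% and Cers3 50.7%, against a median of 53.0% over all promoters.

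Genes that make the sphingoid base, the backbone of every ceramide, showed no 2-fold difference. Sptlc1 and Sptlc2, subunits of serine palmitoyltransferase, the entry enzyme of the pathway, had 328 against 281 and 288 against 170 on the VEGF-labelled array and the wild-type array. For both genes the other probe sets pointed the opposite way, between -0.91 and -0.48 for Sptlc1 and between -0.63 and -0.27 for Sptlc2, so neither has a settled direction here. Sptlc3, a further subunit of that enzyme, was below background on both arrays (6.93 against 14.4). Degs1, the desaturase that completes ceramide synthesis, was nearly equal at 2172 against 2159, while its other probe set gave 0.57. Degs2, which makes phytoceramides, had 44.7 against 29.9.

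The genes that turn ceramides into the acylated and glucosylated forms of the barrier were likewise less than 2-fold apart in 5 of 5 cases. Ugcg, which glucosylates ceramides for the lamellar bodies, had 151 on the VEGF-labelled array against 107 on the wild-type array, and its 2 further probe sets with a fold gave 0.73 and 0.91. Abca12, which carries these lipids into lamellar bodies, had 40.7 against 40.8, a log2 ratio of -0.0035. Pnpla1, the transacylase that makes acylceramide, had 35.3 against 47.5. Its activator Abhd5 had 324 against 214 by 1 probe set and a ratio of -0.34 by another. Slc27a4, which encodes a fatty acid transport protein with acyl-CoA synthetase activity, had 142 against 127.

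Lipoxygenase genes had low signals on both arrays. Alox12b, whose product oxidises the linoleate of acylceramides, had 33.0 on the VEGF-labelled array and 0.74 on the wild-type array, where it was below background. This is at least 1.66-fold higher, or, with the background levels that follow quantile and loess normalization, at least 1.08 and 1.14 on the log2 scale. Aloxe3, which acts on the product of Alox12b and lies next to it in the genome, had 37.7 against 29.6, a log2 ratio of 0.35. Alox12, known from platelets and epidermis, had 30.1 against 25.2. Alox15, known from macrophages and eosinophils, had 21.5 against 3.12 and passed background on the VEGF-labelled array alone, at least 1.08-fold higher. Alox5, of leukotriene synthesis in leukocytes, had 14 against 15.1, which gives no fold. Of the 4 lipoxygenases that could be given a value, 0 reached 2-fold as reported. The Alox12b and Alox15 values are bounds, so their differences may be larger. Aloxe3 and Alox12, above background on both arrays, had ratios above 0, while the sign of the Alox12b and Alox15 bounds follows from the rule for bounds.

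Ceramide turnover genes were split around 0, with 3 of 6 above and 3 below. Asah1, the lysosomal acid ceramidase gene, had 754 on the VEGF-labelled array against 507 on the wild-type array. Smpd1, which encodes acid sphingomyelinase, had 127 against 162, and its other probe set gave -0.64. Acer1, the alkaline ceramidase of differentiating epidermis, had 19.3 against 35.4, with a log2 ratio of -0.87 at a signal where the SD was 0.47. Sgms1, a sphingomyelin synthase gene, had 288 against 212, and its other probe sets ran between -1.32 and 1.39, the widest disagreement within any member. The related Sgms2 had 46.3 against 50.5. Sphk1, the sphingosine kinase gene, had 47.0 against 46.8, a log2 ratio of 0.0072, and -0.66 from its other probe set.

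The neutral lipid and wax enzymes held 1 member at least 2-fold apart. Far2, a fatty acyl-CoA reductase that supplies fatty alcohols for wax in sebaceous glands, had 9.90 on the VEGF-labelled array, below background, against 48.7 on the wild-type array. Far2 was thus at least 4.30-fold lower, while under the common floor of 19.9 the bound was -1.30 on the log2 scale. Its other probe set was below background on both arrays. Far1, the broadly expressed reductase, differed from Far2 in direction, with 773 against 525 and all 5 probe sets above 0, between 0.33 and 1.35. Dgat2, which makes triglycerides, had 182 against 108 and 0.52 from its other probe set. Dgat1, which catalyses the same reaction, had 132 against 160 and -0.63 from its other probe set.

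**Figure D2:**
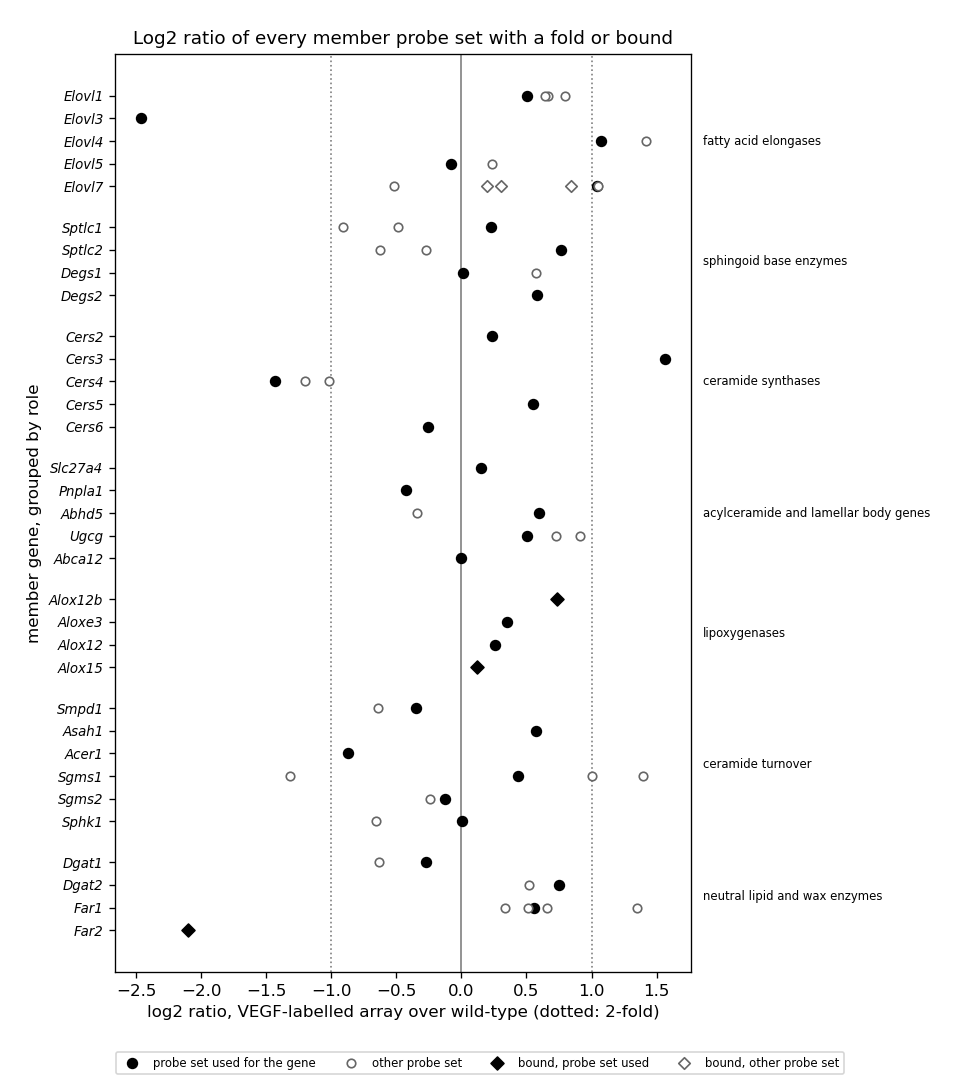
Log2 ratio, VEGF-labelled array over wild-type, of the 65 member probe sets with a fold (circles) or a bound (diamonds), with dotted lines at 2-fold. The filled symbol is the probe set used for the gene; the 3 Cers4 probe sets lie together below -1, while those of Sgms1 spread on both sides of 0.

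Agreement between probe sets could be examined for 17 members with at least 2 probe sets that gave a fold or a bound. In 10 of them all pointed one way, including Elovl1, Elovl4, Cers4, Ugcg, Dgat2 and Far1. In the other 7 (Elovl5, Elovl7, Sptlc1, Sptlc2, Abhd5, Sgms1 and Sphk1) they did not. Of the 6 members at least 2-fold apart, Elovl3, Far2 and Cers3 rested on 1 usable probe set each.

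Beyond the members, 40 further genes of barrier lipid metabolism were looked at, of which 31 had a fold or a bound. By the 2-fold rule 3 were higher and 3 lower, and the median log2 ratio was 0.00226. Each share was 9.68%, beside 3.87% higher and 8.54% lower over all genes. As reported, the share of lower genes lay near the background and that of higher genes above it, which was not tested. The background for lower genes depended on the floor. With the common floor, 624 of all 12194 genes were lower, in place of 1041, while this list kept 3. Ephx3, an epoxide hydrolase that acts after the lipoxygenases, had 128 on the VEGF-labelled array against 30.6 on the wild-type array, a log2 ratio of 2.06. Sult2b1, which makes cholesterol sulfate in the epidermis, had 571 against 203 (1.49). Cyp4f39, which hydroxylates the ultra-long chains made by Elovl4, had 217 against 105 (1.04).

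The 3 lower genes of this list were Acer2, Sgpp1 and Fa2h. Acer2, a Golgi ceramidase gene, had 20.8 on the VEGF-labelled array against 65.8 on the wild-type array (log2 ratio -1.66), although its other probe set gave -0.55. Sgpp1, a sphingosine-1-phosphate phosphatase gene, had 290 against 722 (-1.32), with other probe sets at -1.17 and -0.27. Fa2h, which hydroxylates fatty acids of ceramides and is known in sebaceous glands, had 72.4 against 157 (-1.11).

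A list of 29 further sebaceous and lipid droplet genes gave a fold for 20, with 2 at least 2-fold higher, 4 at least 2-fold lower and a median of -0.08. These shares of 10% and 20% stand beside 3.87% higher and 8.54% lower over all genes, a comparison that was not tested. Krt79, a keratin of the sebaceous duct and upper hair follicle, had 133 on the VEGF-labelled array against 611 on the wild-type array (log2 ratio -2.20). Pparg, which encodes a nuclear receptor that drives sebocyte and fat cell differentiation, had 26.6 against 84.9 (-1.67). Cidea, of the lipid droplet surface, had 20.5 against 61.4 (-1.58), and Scd1, the main stearoyl-CoA desaturase of the sebaceous gland, had 398 against 898 (-1.17), with -0.62 from its other probe set. The 2 higher genes were Fads2, a polyunsaturated fatty acid desaturase gene (167 against 45.0, log2 ratio 1.89, other probe sets at 0.64 and 0.79), and Agpat2, of phosphatidic acid synthesis (212 against 98.5, 1.10).

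**Figure D3:**
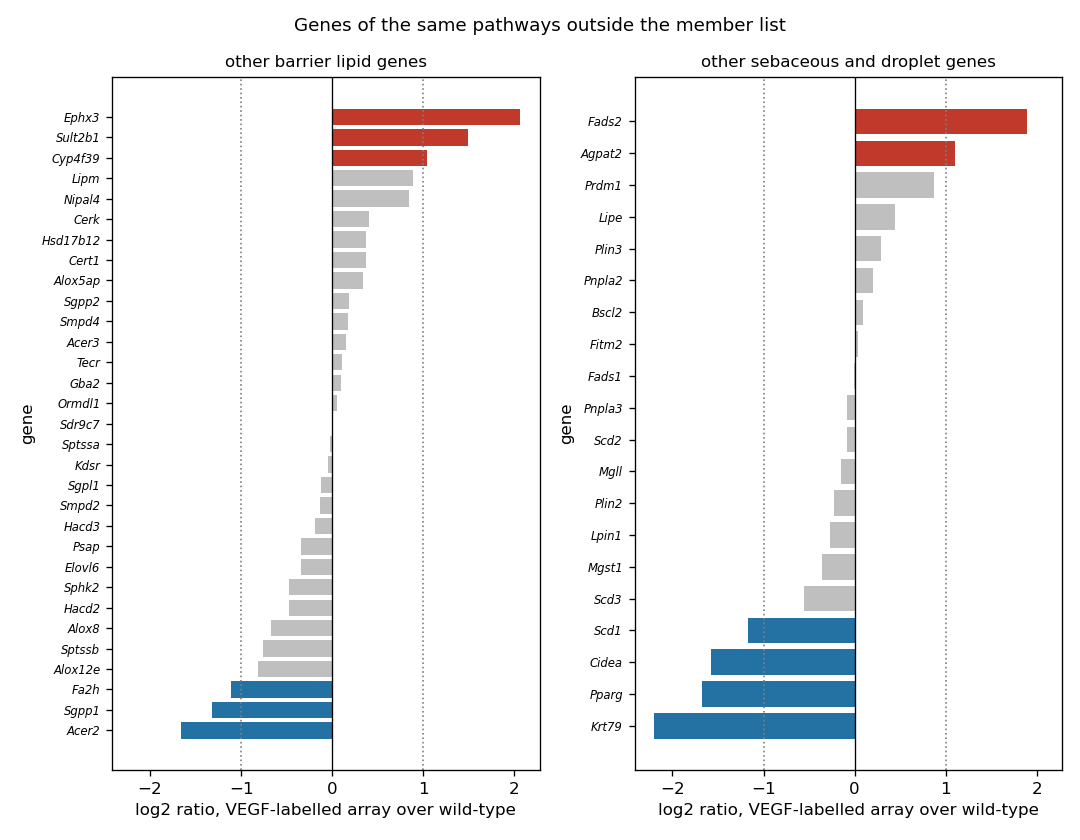
Log2 ratio, VEGF-labelled array over wild-type, of 31 other barrier lipid genes (left) and 20 other sebaceous and droplet genes (right), with red bars at least 2-fold higher, blue bars at least 2-fold lower and dotted lines at 2-fold. Ephx3 leads the left panel at 2.06, and Krt79 ends the right panel at -2.20.

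Markers of other cells and states moved alongside some of these genes, and their part in the results was not tested. In bulk RNA, fewer cells of a type and less RNA per cell cannot be told apart. The 9 sebocyte markers are all part of the list above, so they are not a second observation. Of them, 7 had a probe set and 5 a fold, and the 4 at least 2-fold lower were again Krt79, Pparg, Cidea and Scd1. The summed signal was 612 on the VEGF-labelled array against 1706 on the wild-type array, where Scd1 had 898 and Krt79 611. Mc5r, a melanocortin receptor gene of sebocytes, was below background on both arrays (10.3 against 17.5), as was Plin5, a lipid droplet gene known mainly from oxidative tissues (5.38 against 6.54). Of 9 differentiated keratinocyte markers with a fold, 6 were higher by at least 2-fold, 0 were lower by as much, and the summed signal was 14142 against 11686. The largest ratios were those of Tgm3 (745 against 105), Lor (157 against 43.7), Tgm1 (582 against 192) and Krt1 (1124 against 382), while Krtdap, with the highest signal, had 6754 against 7354. Basal keratinocyte markers were less than 2-fold apart in 6 of 6 cases by the probe set used. Among them Trp63 had 1587 against 2706, while its other probe sets ran between -2.52 and -0.37 on the log2 scale.

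Among non-epithelial markers, 2 of 6 fibroblast genes were at least 2-fold higher on the VEGF-labelled array and 0 lower by as much, with a sum of 2642 against 1119. The 2 were Col3a1, with 1235 against 490, and Col1a2, with 942 against 324. Col1a1 had 236 against 135, while another of its probe sets gave a log2 ratio of 2.04. Dcn had 72.3 against 91.3. Pdgfra, against whose product the cells were stained, had 34.7 against 9.86. The second of these signals was under background, so it was at least 1.75-fold higher. For the lipoxygenases of blood cells, the leukocyte markers summed to 304 against 293. Of the 7 with a value, 0 reached 2-fold by the probe set used, but 3 of these values are bounds. The median log2 ratio of the 7, bounds included, was -0.82. Cd14, the highest of them, had 126 against 81.7. Csf1r had 27.1 against 47.8, while another of its probe sets gave a log2 ratio of -1.10. Adgre1, Fcer1g and Tyrobp passed background on the wild-type array alone, with bounds between at least 1.88-fold and at least 1.97-fold lower. Ptprc, at 17.3 against 14.4, had no fold. The platelet markers summed to 546 against 95.1, of which Ppbp alone gave 480 against 6.71. Itga2b, the platelet marker above background on both arrays, had 39.4 against 69.3, Pf4 had 25.3 against 16.7, and Gp9 was below background on both arrays. Endothelial markers summed to 118 against 78.8, with Kdr highest at 42.5 against 30.6. Of the 4 with a value, 0 reached 2-fold, but 2 of these values are bounds. Of the adipocyte markers, Adipoq, Lep and Cidec were below background on both arrays, and Fabp4, which skin epithelium and blood vessels can also express, had 1649 against 4689. Of the 3 melanocyte markers with a fold, 2 were at least 2-fold lower, with a sum of 170.3 against 364, Dct at 53.6 against 153 and Tyrp1 at 41.4 against 88.0.

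The members past 2-fold were followed through the other processing settings. Cers3 and Elovl4 stayed at least 2-fold higher in all 10 other settings, and Elovl7 in 7 of 10. Cers4 stayed at least 2-fold lower in 9 of 10, and Elovl3 and Far2 in 8 of the 9 settings that gave them a value. The exception for each of these 3 was the offset of 50, which gave -0.82 for Elovl3, -0.60 for Far2 and -0.58 for Cers4. That setting compresses ratios at low signal. It also scales the arrays to equal medians (17.3 on the VEGF-labelled array and 22.6 on the wild-type array before scaling), which raises the ratios. Of the 33 members, 24 had the same sign in each setting that gave a value, and 9 changed sign in at least 1.

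**Figure D4:**
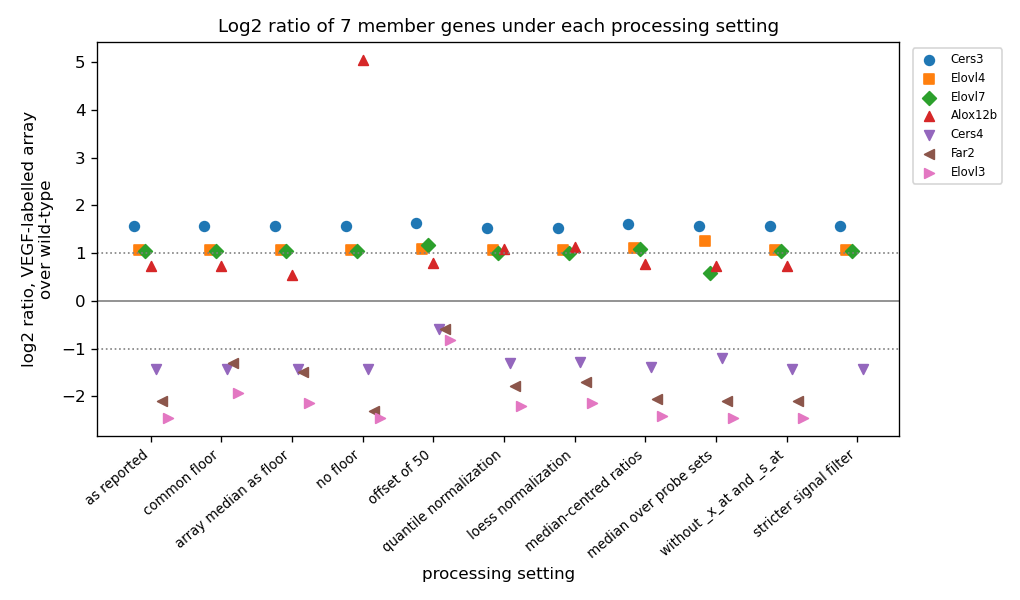
Log2 ratio, VEGF-labelled array over wild-type, of 7 member genes (symbols) as reported and under 10 other processing settings, with dotted lines at 2-fold and bounds not marked apart. Cers3 stays near 1.6, the 3 lower genes stay below 0 and cross -1 only with the offset of 50, and Alox12b reaches 5.04 without a floor, where its wild-type signal was raised to 1.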

How the data were processed

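The authors deposited log2 signals of both arrays, and per the submitters' processing notes these came from MAS5, which summarises each probe set on each array separately (version and scaling target: not given in the sources used here). A 2% trimmed mean of the anti-logged signals was 100.04 on both arrays, and the number of arrays limits the precision. Of 45101 probe sets, 64 controls, 9160 without a gene and 932 with several genes were left out. The RefSeq gene table of GRCm38.p6 held the gene ID of 34741 probe sets, and 0 symbols changed.

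Each array's background was the 90th percentile over 80 probe sets that read odorant or vomeronasal receptors, which skin cells should lack. Signals were floored there, and genes at or below it on both arrays, or with a bound under 1-fold, got no fold. A change of at least 2-fold was counted. The calculation was checked on simulated data and run in Python 3.11.15 with pandas 2.3.3, numpy 2.4.6 and statsmodels 0.14.6. The 10 other settings changed the floor, offset, normalization, probe set choice or signal filter. The members and lists were chosen with earlier results of these data known, so their directions are not independent evidence. Named genes were all members, every gene of the 2 pathway lists at least 2-fold apart, up to 6 in each direction, and, per marker list, the gene with the highest signal and up to 4 at least 2-fold apart. Further markers were named outside that rule, after their values were seen. They define a cell type, ran against the rest of their list or had another probe set past 2-fold. These markers were Ptprc, Csf1r, Adgre1, Fcer1g, Tyrobp, Pf4, Gp9, Itga2b, Pdgfra, Dcn, Col1a1, Mc5r, Plin5, Adipoq, Lep, Cidec and Trp63.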

Additional observations from a re-analysis of the deposited data

How the results depend on the processing

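No paired analysis was possible because there was 1 array per genotype. Of the 33 members with a value, 24 kept their sign in all settings that gave one. The number of members at least 2-fold higher was 3 as reported and 5 with no floor, where Alox12b (5.04) and Alox15 (2.79) were added. It stayed at 3 after quantile and loess normalization because Alox12b (at least 1.08 and 1.14) took the place of Elovl7. The number at least 2-fold lower was 3 as reported, 0 with the offset of 50 and 1 with the stricter signal filter (above background on each array, with a mean over both of 4 times the background or more), which leaves out Elovl3 and Far2. The member median of 0.24 was 0.40 with the offset, 0.39 after quantile and 0.39 after loess normalization, and 0.50 with the stricter filter. For the other barrier lipid genes, the offset gave 0 lower in place of 3 and a median of 0.22. For the other sebaceous and droplet genes, the number higher was 1 with the median over probe sets, in place of 2. The number lower was 1 with the offset and 2 with the stricter filter, in place of 4, and the median was 0.14 with the offset. The remaining values of these counts and medians stayed within 1.5 times the reported count or 0.1 of the reported median. Over all genes, higher genes were 31.2% of those at least 2-fold apart as reported, 43.1% with the common floor, 51.1% after quantile and 52.8% after loess normalization, 49.9% with the stricter filter and 86.4% with the offset. Differences under about the SD of 0.36 to 0.47 between probe sets cannot be resolved with these arrays. Larger ones are not thereby resolved, because this SD leaves out the spread between mice, tumours and sorts. It was taken from probe sets above background on both arrays, so it does not cover bounds.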
